A study of Homo sapiens with 10 samples.

Results

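Regions where unmodified HCT116 cells gave an HSF1 peak are described here, and split by whether cells without FBXW7 gave a peak at the same place. Peaks of 6 HSF1 lists that overlapped by at least 1 bp were joined into 6597 regions. Of these, 317 held a peak of at least 1 of the 3 lists of unmodified cells and are called WT regions below. The members were chosen by the presence of a called peak in a WT list and split by the presence of one in the KO lists, so both are given as descriptions with no test.

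HCT116 is an established human colon cancer line, and it is known to carry extra copies of parts of chromosomes 8, 10, 16 and 17. The cells were WT or FBXW7 KO and grew attached in McCoy's 5A medium. They were left untreated or exposed to 42 °C for 1 h, and each chromatin sample was precipitated with 5 µg of an antibody against human HSF1. WT heat shock and KO heat shock had 2 libraries each, while untreated WT and untreated KO had 1 each. How the KO line was made, and whether it is a single clone, is not said in the labels, nor is it said that replicates were separate cultures. Peak lists do not measure FBXW7, so the knockout was not checked. Where values are set side by side for the 3 lists of a line, they follow the order of heat shock replicate 1, heat shock replicate 2 and then untreated cells. In that order there were 225, 131 and 79 WT peaks and 1566, 3257 and 2866 KO peaks. Read depth is unknown. Each peak carries the authors' score, used below mainly to order peaks within a list, since scores of different libraries are not known to share a scale. Cuts and choices by the highest WT score of a region, and the setting of scores of at least 100, pool lists despite that limit.

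HSF1 is the transcription factor that switches on chaperone genes when proteins misfold. It binds as a trimer to heat shock elements, which are repeats of GAA and its complement TTC in alternating orientation, often close to the start of a gene. FBXW7 is the part of a ubiquitin ligase that recognises the proteins to be degraded. Chaperone promoters are the usual landmarks of an HSF1 map, and they are where the WT regions are described first.

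To show what such a promoter looks like, sequences are given for 7 genes named at WT regions below, the ones with a match to the motif. They are the 250 bases before a RefSeq gene start in GRCh38.p14, found by gene symbol and not by the position of a peak, because peaks are placed on hg19. Capitals mark matches to the 3-unit heat shock element, which was searched as GAA, any 2 bases, TTC, any 2 bases and GAA, or as its reverse complement, and all sequences read 5′ to 3′ towards the gene.
HSPD1 (chr2:197499841-197500090, minus strand): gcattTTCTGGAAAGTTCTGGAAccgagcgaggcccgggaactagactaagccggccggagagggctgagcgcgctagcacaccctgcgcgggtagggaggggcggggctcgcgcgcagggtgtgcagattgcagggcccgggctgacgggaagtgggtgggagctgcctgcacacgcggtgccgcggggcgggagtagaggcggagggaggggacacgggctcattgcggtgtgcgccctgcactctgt
HSP90AA1 (chr14:102087045-102087294, minus strand): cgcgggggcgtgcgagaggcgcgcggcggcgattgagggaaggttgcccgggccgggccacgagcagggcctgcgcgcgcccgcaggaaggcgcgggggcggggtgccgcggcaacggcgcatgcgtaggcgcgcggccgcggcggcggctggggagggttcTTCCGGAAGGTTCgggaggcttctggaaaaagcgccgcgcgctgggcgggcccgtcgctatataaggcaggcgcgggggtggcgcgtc
HSP90AB1 (chr6:44247693-44247942, plus strand): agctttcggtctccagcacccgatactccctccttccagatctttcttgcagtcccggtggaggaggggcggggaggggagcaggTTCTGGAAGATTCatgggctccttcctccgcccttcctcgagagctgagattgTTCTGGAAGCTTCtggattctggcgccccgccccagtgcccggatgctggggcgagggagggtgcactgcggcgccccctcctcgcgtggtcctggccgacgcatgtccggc
HSPA8 (chr11:123062137-123062386, minus strand): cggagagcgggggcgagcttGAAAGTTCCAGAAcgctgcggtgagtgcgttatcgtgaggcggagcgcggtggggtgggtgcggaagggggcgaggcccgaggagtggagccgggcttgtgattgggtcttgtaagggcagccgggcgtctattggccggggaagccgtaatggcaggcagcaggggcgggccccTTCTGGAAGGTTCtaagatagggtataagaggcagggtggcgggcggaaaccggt
SERPINH1 (chr11:75562003-75562252, plus strand): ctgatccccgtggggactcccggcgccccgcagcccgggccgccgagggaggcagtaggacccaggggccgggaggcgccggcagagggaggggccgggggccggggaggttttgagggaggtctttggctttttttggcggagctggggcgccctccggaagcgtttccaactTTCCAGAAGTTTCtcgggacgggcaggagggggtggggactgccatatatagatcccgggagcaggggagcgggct
PGAM5 (chr12:132710592-132710841, plus strand): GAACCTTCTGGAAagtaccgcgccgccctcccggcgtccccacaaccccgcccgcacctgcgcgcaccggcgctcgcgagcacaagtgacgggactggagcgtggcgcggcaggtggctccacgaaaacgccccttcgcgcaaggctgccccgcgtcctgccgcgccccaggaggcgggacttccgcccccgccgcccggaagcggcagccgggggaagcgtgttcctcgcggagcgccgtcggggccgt
ABHD3 (chr18:21704775-21705024, minus strand): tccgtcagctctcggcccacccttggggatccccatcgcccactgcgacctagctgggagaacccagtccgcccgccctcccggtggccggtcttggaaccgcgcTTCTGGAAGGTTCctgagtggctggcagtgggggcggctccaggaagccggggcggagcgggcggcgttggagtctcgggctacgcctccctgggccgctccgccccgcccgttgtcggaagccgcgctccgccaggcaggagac

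In HSPD1 the capitals are 2 matches that overlap each other, and HSP90AB1 and HSPA8 hold 2 separate matches. Other RefSeq starts of HSPD1, HSP90AA1, HSP90AB1, SERPINH1 and ABHD3 had no match. Those of HSP90AB1 lie upstream of the one shown. A 3-unit element was found in 155 of 35116 RefSeq promoters (0.441%) in the same 250 bases. Of 35 genes named here by their start at a WT region, 29 had a promoter in the table, 46 promoters in all, of which 7 (15.2%) held a match, 1 for each of the 7 genes. Those genes were named because their hg19 position is well known, so this share describes the named genes and not the 317 regions. A match is a stretch of letters, and a promoter with none says nothing of HSF1 binding nearby. Both strands were covered, since the forms are reverse complements of each other.

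The 317 WT regions fell mostly into 2 groups, found in every KO list or in none. A peak was present in all 3 KO lists at 121 regions (38.2%, exact 95% interval 32.8 to 43.8), in 1 or 2 KO lists at 42 (13.2%, 9.72 to 17.5) and in no KO list at 154 (48.6%, 43.0 to 54.2). Over all 6597 regions the corresponding share in all 3 KO lists was 5.38%, that in 1 or 2 was 92.3% and that in at least 1 was 97.7%. Those backgrounds are dominated by regions called in KO alone, which are in a KO list by construction, and 234 of the 6280 regions without a WT peak (3.73%) were in all 3 KO lists. WT peaks were also several times wider than KO peaks and so had more room to meet one. Intervals here and below are Clopper-Pearson intervals that cover counting error only and treat regions as independent. The split rests in part on WT heat shock replicate 1: without it 88, 18 and 59 regions remained in the 3 classes, so that the class in all 3 KO lists became the largest. Without WT heat shock replicate 2 the counts were 110, 37 and 107.

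At the edge of the split, the smallest overlap that joined a WT and a KO peak was 84 bp, at chrY:10029243-10029921. The next was 98 bp at chr10:105577928-105579630. On the other side, the region without a KO peak that came closest to one was chr17:80553095-80554878, 414 bp away. The next 2 were chr10:121417681-121418828 and chr17:55357520-55359133, at 459 and 463 bp. Of the 154 regions without a KO peak, 9 had one within 1000 bp and 63 within 10000 bp, and the median gap was 14.0 kb. The lowest scores of the WT lists were 50.26, 50.02 and 50.44. No peak below that is listed.

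The lists of the 2 WT conditions were made up differently. Untreated WT had 60 of 79 regions (75.9%, 65.02 to 84.86) in all 3 KO lists, 9 in 1 or 2 and 10 (12.7%, 6.240 to 22.05) in none. WT heat shock replicate 1 had 94 of 224 (42.0%, 35.4 to 48.7), 30 and 100 (44.6%, 38.0 to 51.4). Replicate 2 had 71 of 130 (54.6%, 45.7 to 63.4), 8 and 51 (39.2%, 30.8 to 48.2). Both heat shock lists thus held a larger part without a KO peak than the untreated list did, and a smaller part in all 3 KO lists. With 1 untreated library this has no test, and heat shock lists are also longer and reach further down in rank.

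Regions found in every KO list recurred between WT libraries more often than those found in none, and recurrence went with score. A peak in at least 2 of the 3 WT lists was present at 77 of the 317 regions (24.3%). By class this was 67 of 121 (55.4%, 46.1 to 64.4) for regions in all 3 KO lists, 5 of 42 (11.9%, 3.98 to 25.6) for those in 1 or 2, and 5 of 154 (3.25%, 1.06 to 7.41) for those in none. When a KO peak had to cover the centre of the WT peak to count, these shares were 54.9%, 35.9% and 9.18%. Of the 121 regions, 54 were in 1 WT list only. Where the highest WT score was under 75, 8 of 49, 1 of 31 and 0 of 135 regions of the 3 classes were in at least 2 WT lists. At 75 or more these counts were 59 of 72, 4 of 11 and 5 of 19. A region in more WT lists has more chances of a high score. All 3 WT lists held 37, 0 and 2 regions of these classes. Both heat shock replicates held 55, 3 and 4. In the class without a KO peak, 95 regions were in WT heat shock replicate 1 alone, 47 in replicate 2 alone and 7 in untreated WT alone. Heat shock lists alone held 61 of the 121 regions in all 3 KO lists, the untreated list alone held 11, and 49 were in both conditions. For regions without a KO peak these numbers were 144, 7 and 3.

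**Figure D1:**
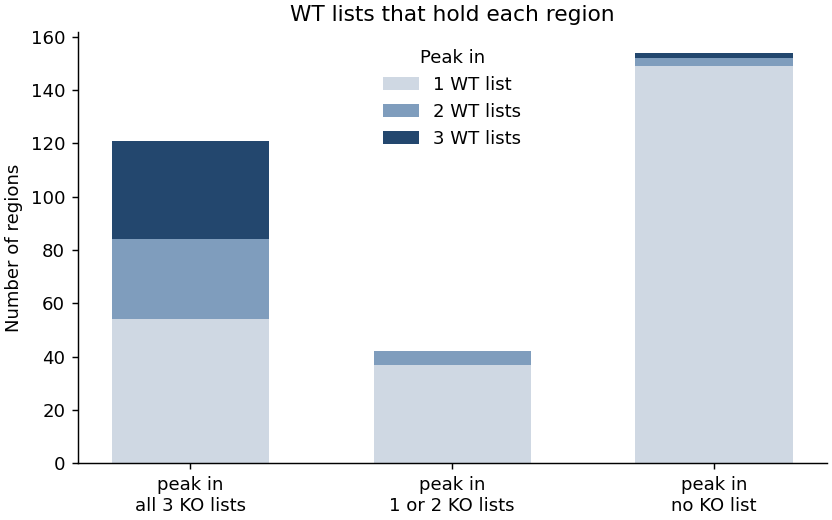
Number of WT regions (vertical axis) with a peak in all 3, in 1 or 2, or in no KO list (bars), divided by the number of WT lists that hold a peak there (shades). Of the left bar 67 of 121 regions are in 2 or 3 WT lists, and of the right bar 5 of 154.

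Scores within each WT list followed the same order. In WT heat shock replicate 1 the median score was 97.1 for regions in all 3 KO lists, 64.4 for those in 1 or 2 and 60.6 for those in none. In replicate 2 the medians were 83.3, 68.7 and 56.7, and in untreated WT 78.8, 57.4 and 57.1. Ranges overlapped in every list, because each class reached down to a score near 50. The upper ends were far apart in both heat shock lists, with highest scores of 872, 87.8 and 178 in replicate 1 and 892, 84.7 and 103 in replicate 2. Untreated WT had 663, 90.2 and 397, and the last of these was a single region. Among the 20 highest ranks, regions in all 3 KO lists took 19, 20 and 19 places in the 3 WT lists, and regions in 1 or 2 took none. Taking the highest WT score of each region, 54 of 59 regions at 100 or more were in all 3 KO lists (91.5%, 81.3 to 97.2), against 49 of 215 below 75 (22.8%, 17.4 to 29.0). Regions in no KO list made up 5 of the 59 and 135 of the 215. This cut pools 3 libraries whose scores are not known to share a scale. It also favours regions in several WT lists, which have more chances of a high score, and these were mostly regions in all 3 KO lists. Within the single WT lists, regions at 50 to 60 were in all 3 KO lists at 21 of 80, 19 of 56 and 15 of 27. At 100 to 200 they were at 32 of 35, 18 of 19 and 16 of 16, and at 200 or more at 13 of 13, 9 of 9 and 7 of 8.

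**Figure D2:**
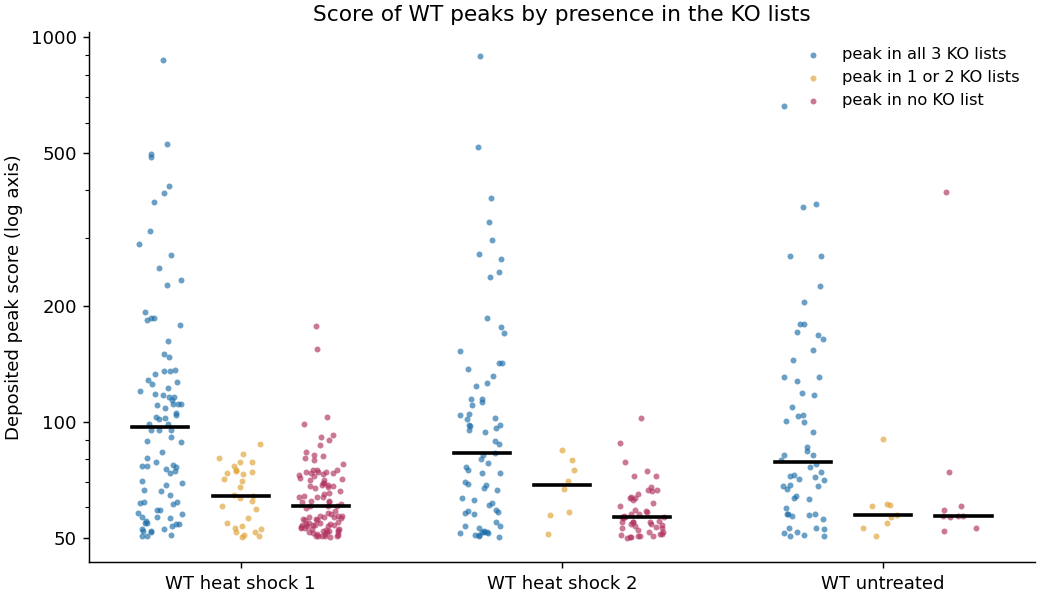
Deposited peak score (vertical, log axis) of each WT region in the 3 WT lists (horizontal), coloured by presence in the KO lists. Points are regions and black bars are medians, which are 97.1, 64.4 and 60.6 in WT heat shock 1, and the scores above 200 belong to regions in all 3 KO lists except 1 region of untreated WT.

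Of the 8 highest WT scores in the class in all 3 KO lists, 4 were at chaperone genes, and the others were at USPL1, STARD13, PWWP3A and a region with no gene named. No annotation of hg19 was used here, so genes are named as background from their known place in that build, and they enter no count of nearby genes. HSPD1 and HSPE1, which encode the mitochondrial chaperonin and its partner and share a promoter, had the first rank of each WT list (chr2:198363695-198365679). Its scores were 872, 892 and 663 there and 2700, 3100 and 3100 in the 3 KO lists, where other regions also stood at 3100, so that ranks at the top of those lists are tied. HSP90AA1, the stress-inducible cytosolic HSP90, lay at chr14:102552691-102554346 with scores of 498, 330 and 362 in the 3 WT lists. HSP90AB1, its constitutive relative, lay at chr6:44213452-44216301 with 373, 265 and 128. Both genes ranked between 3 and 18 in the WT lists and between 1 and 7 in the KO lists. HSPH1, an HSP110 nucleotide exchange factor for HSP70, lay at chr13:31734751-31737082 and scored 527, 381 and 206.

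HSPA8, the constitutive cytosolic HSP70, was placed low by both heat shock lists and high by the untreated one (chr11:122932122-122933742). Its scores were 66.4, 53.7 and 164, at ranks 120, 102 and 13 of the 3 WT lists. In the KO lists it ranked 23, 11 and 11. DNAJA1, an HSP40 that delivers clients to HSP70, scored 111, 124 and 104 in the 3 WT lists (chr9:33023946-33025956). ST13, a co-chaperone of HSP70, scored 117, 98.2 and 154 (chr22:41251746-41253536). HSPB1, a small heat shock protein, scored 186, 105 and 168 (chr7:75931116-75933524). These 3 genes were in all 6 lists, as was HSPA8.

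Genes of the chaperonin TRiC, which folds actin and tubulin, were present as CCT4 and TCP1 in all 6 lists. CCT4 (chr2:62114812-62116441) scored 103, 68.8 and 180 in the 3 WT lists. TCP1 (chr6:160210167-160211709) scored 80.5, 73.7 and 172. Like HSPA8, both stood at rank 9 to 13 in untreated WT and at rank 46 or below in the heat shock lists. Scores and ranks from lists of unlike length and unknown depth do not show a loss on heat shock. CCT7 (chr2:73460738-73462050) was in both heat shock lists at 66.8 and 59.0 and in no untreated WT list, while all 3 KO lists held it.

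Further chaperone genes, named after their values were seen, each had a peak in 1 or 2 WT lists and in every KO list. STIP1, the adaptor between HSP70 and HSP90, scored 91.5 and 98.4 in the WT heat shock lists and had no untreated WT peak (chr11:63952261-63954313). FKBP4 (chr12:2903335-2904544) scored 111 and 87.7 in the same lists. AHSA1, which stimulates the ATPase of HSP90, was in replicate 1 alone at 58.2 (chr14:77923807-77925159). PTGES3, the co-chaperone p23, was in untreated WT alone at 71.1 (chr12:57080798-57083104). SERPINH1, a collagen chaperone of the endoplasmic reticulum, was in replicate 2 and untreated WT at 102 and 70.6 (chr11:75272519-75273976). Their ranks ran from 9 to 148, 10 to 120 and 13 to 160 in the 3 KO lists.

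The ubiquitin genes named differed in their WT lists. UBB, a polyubiquitin gene, was in all 6 lists with WT scores of 290, 239 and 226 (chr17:16283375-16285056). UBQLN1, a shuttle factor for ubiquitinated proteins, was in all 6 with 64.7, 55.1 and 52.6 (chr9:86322377-86323849). UBE2D3, a ubiquitin-conjugating enzyme, was in WT heat shock replicate 1 alone at 57.6 (chr4:103748209-103749576). All 3 had a peak in each KO list. HSF1 itself held 3 of the regions, in its gene body and reaching its end. The first (chr8:145532432-145533996) was in WT heat shock replicate 2 alone at 102. The next (chr8:145534331-145536247) scored 104, 142.5 and 68.5 in the 3 WT lists. The last (chr8:145536977-145538707) was in replicate 2 and untreated WT, at 82.0 and 82.1. In the 3 KO lists the first ranked 18, 98 and 252, the next 16, 108 and 368, and the last 11, 51 and 215. Each KO heat shock list held 3 or 4 separate peaks in each of these regions, and untreated KO held 3, 2 and 1. The highest-scoring KO peaks there were 92 to 365 bp wide.

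Genes without a chaperone role stood among the highest ranks as well. A region at the start of USPL1 (chr13:31190920-31192725) scored 488, 518 and 271 in the 3 WT lists. One inside STARD13 (chr13:34116222-34117822) scored 410, 298 and 269. PWWP3A, formerly MUM1, scored 227, 170 and 368 (chr19:1353842-1355364). PGAM5, a mitochondrial phosphatase, scored 272, 245 and 145 (chr12:133286374-133287943), and TRA2B, a splicing regulator, 234, 186 and 118 (chr3:185655323-185656760). ATL3, which shapes the endoplasmic reticulum, scored 194, 142 and 82.0 (chr11:63438210-63439700). LRIF1, CCDC117, SPR and DGKE were further genes named by their start, and PRKCA, WNT3 and GNG7 by their body, at regions of all 6 lists. ABHD3 was in both WT heat shock lists at 129 and 66.8 (chr18:19284147-19285490), and ZNF473 at 127 and 137 (chr19:50528618-50529869). NUDC and PMVK were also in both heat shock lists alone, at 98.6 and 61.6 and at 56.7 and 53.1. MAT2A and MORF4L2 were in untreated WT alone, at 50.6 and 50.4, its lowest ranks. No gene was named at chr9:138017835-138019251 (184, 132 and 74.2 in the 3 WT lists), chr17:74454783-74457568 (136, 153 and 79.7) or chr19:5863711-5866089 (136, 114 and 131), which had ranks from 19 to 49 in the KO lists. Nor was one named at chr2:106535683-106537290, chr13:21517218-21518549 or chr17:73995911-73997350, with KO ranks from 21 to 68. Other unnamed regions of all 6 lists had lower places in the KO lists than those just given. These were chr1:234911754-234919464 (ranks 1004, 582 and 789), chr16:33952391-33953974 (173, 756 and 421) and chr17:41381099-41382717 (103, 132 and 173). Broad ones on chromosomes 1 and Y are described below.

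Of the regions named by a gene, 41 were in all 3 KO lists, 1 in 1 or 2 and 1 in none. This count follows how well each place is known and is not a share of genes. The exceptions were both inside a gene body. TET1, an enzyme that oxidises methylated cytosine, held chr10:70450203-70451856, with scores of 73.3 and 84.7 in the WT heat shock lists. KO heat shock replicates 1 and 2 placed it at 718 and 194, ranks 12 and 235, and untreated KO had no peak. KMT2A, a histone methyltransferase, held chr11:118342003-118345571. This was the second rank of untreated WT at 397 and rank 126 of WT heat shock replicate 1 at 64.4, with no peak in replicate 2 or in any KO list.

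Apart from KMT2A, the highest WT scores without a KO peak were few. The region chr4:49104105-49108377 scored 178, 58.3 and 74.3 in the 3 WT lists, and chr12:162326-167873 scored 154, 78.8 and 53.0. Both were in all 3 WT lists, the only 2 such regions outside the class in all 3 KO lists, and their regions were 4273 and 5548 bp long. Their nearest KO peaks were 1349 and 78207 bp away. The first depends on the joining rule: it lies beside chr4:49108776-49111049, a region in all 3 KO lists. Joining peaks within 1000 bp merges those 2. Next came chr21:11185744-11187341 (103 and 72.4 in the heat shock lists) and chr10:114755699-114758206 (56.1 and 103). The remaining 149 regions were each in 1 WT list, and their highest scores were 98.6 at chr8:128771916-128773597, 92.6 at chr17:21238212-21240930 and 91.6 at chr17:56165945-56167963, all in heat shock replicate 1.

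The 42 regions in 1 or 2 KO lists had median WT scores closer to those in none in heat shock replicate 1 and untreated WT, and between the other classes in replicate 2. They were led by chr10:42354717-42360011, at 90.2 in untreated WT alone, and chr21:11129316-11131299, at 87.8 and 67.0 in the heat shock lists. Then followed TET1, chr21:11127820-11129245 (82.8), chr16:90036432-90038857 (80.6), chr21:11114473-11116947 (60.4 and 79.6), chr17:70646955-70649485 (78.8) and chr21:11112156-11113836 (78.7). The chromosome 21 regions named here all lie within the short stretch chr21:10717115-11187341. Nearness to centromeric gaps or repeats was not screened for this class. KO heat shock replicate 2 and untreated KO together, without replicate 1, held 15 of the 42, the commonest pattern. Untreated KO alone held 8, KO heat shock replicate 2 alone 6, replicate 1 alone 4, both heat shock replicates 6 and replicate 1 with untreated KO 3. KO peaks at these regions had median ranks of 545, 858 and 684.5 in the 3 KO lists (13, 27 and 26 regions). Regions of KO alone had 844.5, 1714 and 1522. At the 121 regions in all 3 KO lists the median ranks were 90, 80 and 87. At the 234 regions in all 3 KO lists without a WT peak they were 273.5, 236.5 and 262.

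The classes were placed on different chromosomes. Chromosomes 8, 10, 16 and 17 held 134 of the 154 regions without a KO peak (87.0%, 80.7 to 91.9). They held 20 of the 42 in 1 or 2 KO lists (47.6%, 32.0 to 63.6, and 23.1% when the KO peak had to cover the centre of the WT peak) and 24 of the 121 in all 3 (19.8%, 13.1 to 28.1). Over all 6597 regions the share was 30.5%, and over the 234 regions in all 3 KO lists without a WT peak 21.8% (16.7 to 27.6). These 4 chromosomes were picked because they held so many regions without a KO peak, so the first share is a description. Chromosome 17 had 64 such regions, chromosome 10 had 37, chromosome 8 had 21 and chromosome 16 had 12. In all 3 KO lists these chromosomes had 15, 0, 5 and 4. Turned around, WT regions on the 4 chromosomes were in no KO list at 134 of 178 (75.3%, 68.3 to 81.4) and in all 3 at 24. On all other chromosomes 20 of 139 were in none (14.4%, 9.02 to 21.3) and 97 (69.8%, 61.4 to 77.3) in all 3. Chromosome Y held 12 WT regions, 8 in all 3 KO lists, 4 in 1 or 2 and 0 in none, while it held 0.985% of all 6597 regions.

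**Figure D3:**
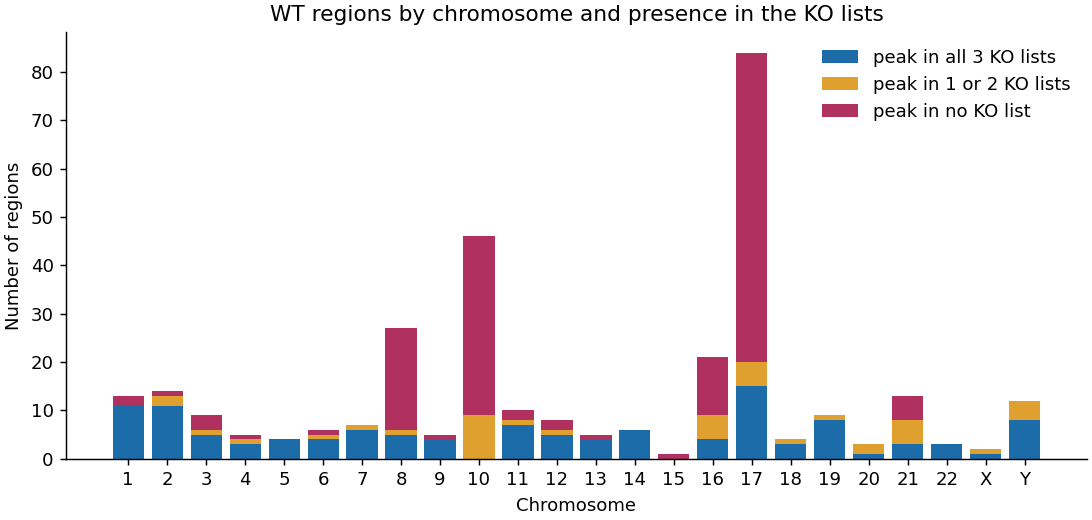
Number of WT regions (vertical axis) on each chromosome (horizontal), stacked by presence in the KO lists. Chromosomes 8, 10, 16 and 17 carry 134 of the 154 regions without a KO peak, and chromosome 17 alone 64.

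The pattern was also counted within each WT list. The chromosomes were picked from these same regions without a KO peak. The counts by list and the shares by score below are therefore descriptions and not separate checks. Regions without a KO peak lay on chromosomes 8, 10, 16 and 17 at 84 of 100 in WT heat shock replicate 1 (75.3 to 90.6%). This was 45 of 51 in replicate 2 (76.1 to 95.6%) and 6 of 10 in untreated WT (26.2 to 87.8%). The interval of untreated WT includes the share of 30.5% over all 6597 regions, so that list alone does not show the pattern. For regions in all 3 KO lists the counts were 18 of 94, 16 of 71 and 14 of 60. Among regions whose highest WT score was under 75 the shares were 88.9% (120 of 135) and 16.3% (8 of 49), and at 75 or more they were 73.7% (14 of 19) and 22.2% (16 of 72). Among the strongest peaks the pattern was not seen, but the regions left were few. With only peaks of score 100 or more in every list, 1 of 7 regions without a KO peak (14.3%) lay on these chromosomes. That cut also removes weaker KO peaks, so some of the 7 can hold a KO peak of lower score. On these chromosomes 1 of 134 regions without a KO peak recurred in a second WT list, against 15 of 24 of those in all 3 KO lists. KO lists held many peaks there. Regions of KO alone lay on the same chromosomes at 29.3% (1837 of 6280). Copy number was not measured here, and its part in the pattern was not tested.

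Regions without a KO peak stood close together, as did those in 1 or 2 KO lists. Spacing is not separate from chromosome, since chromosomes 8, 10, 16 and 17 held 178 of the 317 WT regions. The classes were not compared in spacing within the same chromosomes. The nearest other WT region lay within 1000000 bp of 133 of the 154 (86.4%, 79.9 to 91.4), of 31 of the 42 in 1 or 2 KO lists (73.8%, 58.0 to 86.1) and of 54 of the 121 in all 3 (44.6%, 35.6 to 53.9). Median distances were 140 kb (153 regions with a neighbour on their chromosome), 54.0 kb and 1563 kb. Runs of at least 5 regions without a KO peak, each no more than 5 Mb from the next, numbered 9 and spanned 79.4 Mb. They held 124 of the 154 regions (80.5%), which is raised by building them from these regions. The same stretches held 13 of the 121 regions in all 3 KO lists (10.7%), 16 of the 42 in 1 or 2 and 1056 of the 6280 regions of KO alone (16.8%).

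The longest run was chr10:100090248-129847907, with 32 regions without a KO peak, 4 in 1 or 2 KO lists, 0 in all 3 and 298 regions of KO alone. On chromosome 17 there were 3 runs, chr17:43858876-48666896 with 12 regions, chr17:55357520-64955341 with 22 and chr17:70538382-81080386 with 27. The last also held 5 regions in all 3 KO lists and 288 of KO alone, or 27.3 per Mb. Chromosome 8 had 3 runs of 5, 5 and 9 regions and chromosome 16 had 1 of 7, chr16:81600824-90083401. Each of these runs held regions of both WT heat shock replicates. In the chromosome 10 run 22 were from replicate 1, 9 from replicate 2 and 2 from untreated WT, 1 of them in 2 lists. Over all 9 runs, 2 of the 124 regions were in at least 2 WT lists. The stretches were built from regions without a KO peak, so nothing is read from how WT and KO peaks fell within them.

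**Figure D4:**
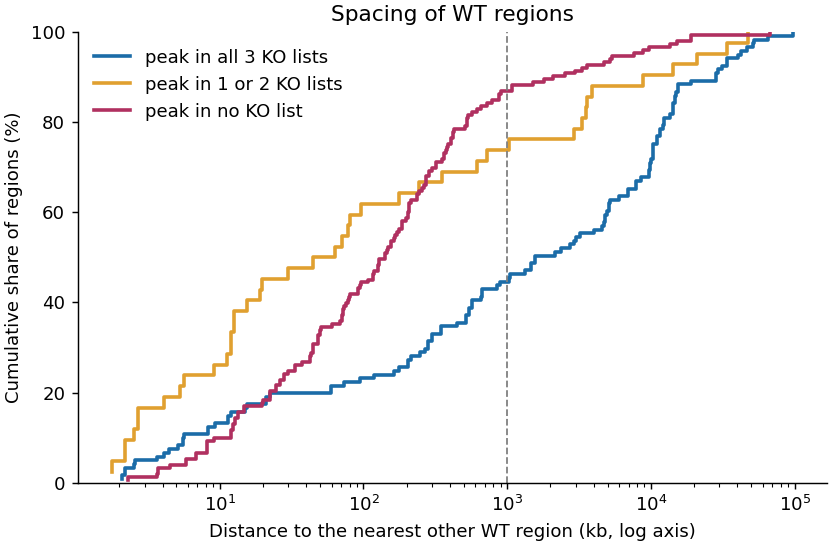
Cumulative share of WT regions (vertical axis, in percent) whose nearest other WT region lies within a given distance (horizontal, log axis, in kb), by presence in the KO lists. The dashed line marks 1000 kb, where the curves stand at 86.4%, 73.8% and 44.6% for regions in no KO list, in 1 or 2 and in all 3.

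Width differed little between the classes in the heat shock lists and more in the untreated one. Median WT peak widths were 1382 bp for regions in all 3 KO lists, 1557 for those in 1 or 2 and 1586 for those in none in WT heat shock replicate 1. In replicate 2 they were 1372, 1502 and 1556 bp. Untreated WT had 1548, 2239 and 3812 bp, from 60, 9 and 10 peaks. The quartiles of the first and last class overlapped in both heat shock lists (1268 to 1623 against 1360 to 1995 bp in replicate 1). In untreated WT they did not (1396 to 1988 against 2424 to 4066 bp).

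A small set of peaks in the class in all 3 KO lists was broad. Taking a width of 3000 bp or more for the highest-scoring WT peak, a limit set after the widths were seen, 13 of the 121 were broad (10.7%), as were 5 of the 42 and 10 of the 154. Within each list they were set beside the narrower regions of the class. Their median ranks in the 3 WT lists were 27.5, 23 and 50.5 (12, 7 and 6 regions), against 58, 44.5 and 31.5 for the narrower ones (82, 64 and 54). The broad regions thus had the better median in both heat shock lists and the worse one in untreated WT. In the 3 KO lists their medians were 259, 428 and 362, against 78, 67.5 and 74.5 for the 108 narrower regions. WT and KO ranks are not compared, because the lists differ in length. Ranks of 200 or better in every KO list were held by 1 of the 13 and 77 of the 108 (71.3%, 61.8 to 79.6). Several separate KO peaks lay within 9, 11 and 11 of the 13 broad regions in these lists, and within 19, 20 and 13 of the 108 others. A wider region has more room for several KO peaks, so these counts are raised by the choice on width.

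The 13 varied widely among themselves. In WT heat shock replicate 1 the best rank was 6, at chr1:142535218-142540183, and the worst 194, at chr1:17049642-17052806, the last having no other WT peak. In the 3 KO lists these regions ranked 40, 105 and 129, and 1371, 1361 and 862. The region chrY:13480944-13486651 ranked 15, 24 and 56 in WT and 187, 413 and 169 in KO. At chr17:25263127-25268262 the ranks were 95 in WT heat shock replicate 1, 24 in untreated WT and 112, 267 and 307 in KO. As background from general knowledge of hg19, several of the 13, among them those on chromosomes 16, 17 and Y, lie near centromeric or heterochromatic gaps. This background is given for the 13 only, and regions of the other classes or on chromosome Y were not placed against such gaps. Repeats were not screened in any WT region, and their part was not tested.

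Where lines shared a narrow region, KO peaks sat near the middle of WT peaks. For the narrower regions the median distance between centres was 64.2 bp between the first heat shock replicates of the lines and 57.8 bp between the untreated lists. It was at most 200 bp at 66 of 82 and 43 of 54 regions. For the broad regions the medians were 1006 bp (12 regions) and 592 bp (6 regions), with 0 and 1 within 200 bp. WT peaks were wider than the KO peak at each of the shared regions in each of the 9 pairs of lists. Median ratios were 3.55 for narrow and 17.7 for broad regions between the first heat shock replicates. The broad regions were chosen by WT width, so a larger ratio is built into that choice. Wider peaks also leave more room for distance between centres.

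Scores of the lines ran together at the narrow regions and less so with the broad ones. Across the 94 regions of WT heat shock replicate 1 in all 3 KO lists, Spearman's rho with the scores of KO heat shock replicate 1 was 0.454, and 0.627 without the broad regions (82). Between untreated WT and untreated KO it was 0.622 (60 regions) and 0.676 (54). Between the WT heat shock replicates it was 0.756 (55 regions) and between KO heat shock replicates 0.890 (121). WT heat shock replicates 1 and 2 had 0.505 (44 regions) and 0.453 (42) with untreated WT. Each pair of lists covers its own set of regions, so the values of different pairs are not ranked. KO heat shock replicate 2 and untreated KO had 0.928 (121). These describe the regions of this class, which share their libraries and were called in both lists, and carry no p-value.

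**Figure D5:**
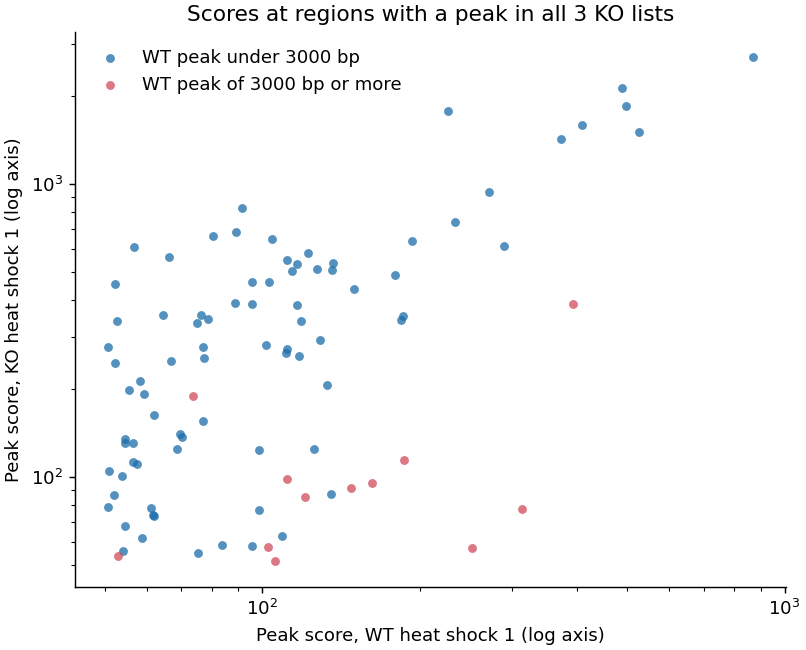
Peak score in WT heat shock replicate 1 (horizontal) against KO heat shock replicate 1 (vertical), both log axes, at the 94 regions with a peak in that WT list and in all 3 KO lists. Points are regions, and the 12 with a WT peak of 3000 bp or more lie below most others of like WT score.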

How the data were processed

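HSF1 ChIP-seq peaks of 6 libraries (2 WT heat shock, 1 untreated WT, 2 KO heat shock, 1 untreated KO) were analysed, grouped by sample title. The 4 input libraries were not analysed here. The authors deposited 1 peak list for each library, with a score for each peak, called against the input of the same line and condition, as the deposited lists' names say. The submitters' processing notes list hg19 as the build and MACS 1.4.2, Bowtie 0.12.7 and CASAVA as tools, and give no settings. The unit of the deposited score is not stated, and read depth is unknown, so the precision of single scores is too.

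Peaks overlapping by at least 1 bp were joined with numpy 2.4.6 and pandas 2.3.3 under Python 3.11.15. The 6597 regions equalled those of bedtools 2.31.1, and 20 of 20 simulated sets of lists gave back the planted classes. In a region with several peaks of a list the highest-scoring one was used. Shares carry exact Clopper-Pearson 95% intervals from scipy 1.17.1, and figures were drawn with matplotlib 3.10.9. No test was run: the rule used peak presence, regions are not replicates, and the untreated groups have 1 library each.

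Members and lists were chosen with earlier results of these data known. Regions were named as the 8 highest WT scores of each class and the regions in all 3 WT lists. Further chaperone, ubiquitin and other genes, the run lengths, the broad limit and the 4 chromosomes were chosen after values were seen. No hg19 genome or annotation was used, so distances to gene starts, gene list counts and motifs in regions were not computed. The 42 gene names are background. Each symbol is on the region's chromosome in RefSeq (42 of 42), and gene order matched region order in 23 of 23 neighbouring pairs. Alternatives were a score of at least 100, joining within 1000 bp, a KO peak over the centre of the WT peak, chromosomes 1 to 22 and X, and each list left out except untreated KO.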

Additional observations from a re-analysis of the deposited data

How the results depend on the processing

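Class sizes depended most on weak peaks and on WT heat shock replicate 1. With scores of at least 100 in each list, 42 regions were in all 3 KO lists, 10 in 1 or 2 and 7 in none. Leaving out 1 library at a time gave 88 to 136, 18 to 37 and 59 to 160 regions. The lowest of each range came without WT heat shock replicate 1, and without KO heat shock replicate 1 there were 23 regions in 1 KO list. The class counts stayed within 1.5 times their value in 21 of 27 comparisons. When a KO peak had to cover the centre of the WT peak, the counts were 82, 39 and 196. The share on chromosomes 8, 10, 16 and 17 among regions in no KO list was 77.0% in that setting and 14.3% (1 of 7) with scores of at least 100, and 84.1 to 88.1% in the other 7. For regions in all 3 KO lists it was 18.2 to 24.3% over the 9 settings. For those in 1 or 2 it was 23.1% with the centre covered, 20% with scores of at least 100 and 39.1 to 60.5% in the other 7. The share in at least 2 WT lists, run under 6 settings, was 51.5 to 59.5% for all 3 KO lists. For 1 or 2 it was 35.9% with the centre covered and 8.70 to 13.2% otherwise. For none it was 9.18% with the centre covered, 14.3% with scores of at least 100 and 2.80 to 3.25% otherwise. These shares were run under settings added after the data were seen. No paired analysis was possible because the results come from no test and the untreated groups have 1 library each. Shares near gene starts were not run, since no hg19 annotation was used. Unknown depth limits every absence: absence means only that no peak passed the caller there.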

Other observations

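A short stretch of chromosome 21, chr21:10717115-11187341, held 5 WT regions without a KO peak, 5 in 1 or 2 KO lists, 1 in all 3 and 33 regions of KO alone. Repeats and centromeric gaps were not screened there. Chromosome 15 held 1 WT region, chr15:67423222-67425645, with no KO peak, and 150 regions of KO alone.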
